A study of Mus musculus with 6 samples.

Results

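The 52 genes described here encode proteins that bring secretory granules to the plasma membrane, hold them there and fuse them with it. The rule takes them by name, as the SNAREs and their regulators, the synaptotagmins, the Rab3, Rab27 and Rab37 GTPases with their effectors, the RIM, Munc13 and CAPS proteins, and proteins that sit in the granule or vesicle membrane. A probe whose RefSeq name led to the gene was found for 51 of them, out of 22911 genes with a symbol on the array, and *Syt5* was the 1 gene without such a probe. Of the 51 genes, 43 had a signal well above background on each of the 6 arrays, whereas *Syt1* and *Syt4* were not well above background on any array.

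Regulated exocytosis is the step by which endocrine cells release stored hormone. A granule is carried to the cell cortex and tethered by a Rab GTPase and its effectors, is made ready by Munc13 and CAPS proteins, and fuses when a vesicle SNARE zippers with syntaxin and SNAP25 under the control of calcium-binding synaptotagmins. In pancreatic islets this machinery serves beta cells, which release insulin, and the alpha, delta, epsilon and PP cells, and much of it is shared with neurons.

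The islets came from *Wnt4eGFPCre;mTmG* pups at postnatal day 1 (P1), which carry the allele *Wnt4 tm2(EGFP/cre)Svo*, here called *Wnt4eGFPCre*, and the membrane reporter mTmG (*tm4(ACTB−tdTomato,−EGFP)Luo* at *Gt(ROSA)26Sor*), were crossed to C57BL/6J and received no treatment. Membrane GFP (mGFP) marks cells in which the Cre driven by *Wnt4* has been active, together with their descendants, so it records past as well as present *Wnt4* expression. Dissociated islet cells were sorted by FACS into mGFP-positive cells (Wnt4hi, labelled GFPpositive) and mGFP-negative cells (Wnt4low, labelled GFPnegative), and amplified RNA of each population was hybridised to single-color microarrays. There were 3 arrays per population, Wnt4hi replicates 2, 3 and 4 and Wnt4low replicates 1, 3 and 4, each from a pool of 3 or 4 pups. The labels give Wnt4neg and Wnt4pos as genotypes where the design describes a sort, so whether all mGFP-negative cells carried *Wnt4eGFPCre* is not settled. They also do not say whether equal replicate numbers share pups, and p values measure the spread between these pools only.

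Levels below are normalized log2 intensities in that order of replicates, and a log2 fold change is the Wnt4hi mean minus the Wnt4low mean from limma's empirical Bayes fit over all 45616 features. A gene that passed the unadjusted threshold of 0.05, the one the study used, is said to have risen or fallen. The p values printed are limma's after Benjamini-Hochberg adjustment over all features, so that a gene can have risen and still have an adjusted p above the threshold. With 3 arrays against 3, an exact permutation test cannot give a two-sided p below 0.1.

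*Wnt4* itself was higher on every Wnt4hi array (11.20, 10.53 and 10.77 in Wnt4hi and 9.85, 10.11 and 9.31 in Wnt4low cells), with a log2 fold change of 1.08 (adjusted p = 0.212). It is the gene that the sort follows. Between 70.5% and 79.5% of spots were well above background per array and 0 spots were saturated. The populations also differed in marker genes of other cell types. Of 12 endothelial markers, 12 were lower in Wnt4hi and 11 passed the unadjusted threshold, with a median log2 fold change of −3.79, and their summed intensity ran from 4723 to 7428 on Wnt4hi and from 40955 to 78312 on Wnt4low arrays. Of these markers 8 had a signal well above background on each array. Of 10 mesenchymal markers 6 fell and of 8 leukocyte markers 5 fell. Of 10 beta cell markers 6 rose (summed intensity from 322288 to 330052 on Wnt4hi and from 189755 to 288525 on Wnt4low arrays, all 10 well above background throughout) and of 7 alpha cell markers 3 rose (60898 to 104241 against 10418 to 56554). Both markers of PP and epsilon cells rose, *Ghrl* (ghrelin) by 2.10 (adjusted p = 0.0498) and *Ppy* (pancreatic polypeptide) by 1.22 (adjusted p = 0.0844), with a summed intensity from 32809 to 44030 on Wnt4hi and from 9992 to 14082 on Wnt4low arrays. Of 4 delta cell markers *Sst* (somatostatin) and *Hhex* fell and *Rbp4* rose. Of 8 neuronal markers 3 fell and 0 rose. Of 5 erythroid markers 2 fell, and 1 fell of 6 Schwann, of 6 ductal and of 8 acinar markers, the last with a median log2 fold change of −1.01 and a summed intensity of 5663, 30401 and 21825 on the Wnt4low and from 6210 to 9483 on the Wnt4hi arrays. Wnt4low replicate 1 had the lowest beta and alpha and the highest endothelial levels of the 6 arrays. The part these cells play in the results was not tested, and in sorted bulk samples fewer cells of a type cannot be told apart from less RNA per cell.

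Of the 51 exocytosis genes, 15 rose in Wnt4hi cells, which is 29.4% of them against 5.02% of all features, and 0 fell, against 5.53% of all features. After adjustment over all features 1 gene remained higher, *Cadps* (0.0351% of all features), and 0 were lower (0.403%). For 21 genes, all higher in Wnt4hi, no Wnt4hi value fell within the Wnt4low range, against 9.56% of all features higher and 6.44% lower with such separate ranges. The log2 fold change was above 0 for 43 of the 51 genes, against 63.5% of all features. Its median was 0.57, against 0.072 over all features and 0.061 over those with a gene symbol. The genes and lists were chosen with earlier results of these data known, so these shares are a description and not a test.

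By role, among the granule and vesicle membrane proteins 3 of 6 rose (median log2 fold change 1.41), among the priming factors 2 of 4 (1.22), among the Rab GTPases 3 of 7 (1.04), among the synaptotagmins with *Doc2b* 4 of 11 (0.57), among the Rab effectors and tethers 2 of 10 (0.44), among the SNARE regulators 1 of 6 (0.41) and among the SNAREs 0 of 7 (0.032). These lists are short, and no test of the differences between them was made. Without Wnt4low replicate 1 the medians were, in the same order, 0.81, 0.77, 0.67, 0.58, 0.57, 0.55 and −0.037, and 15 genes rose, with *Rab3a* and *Syt16* lost and *Rims3* and *Sytl2* gained (the latter with its probe not well above background on the Wnt4low arrays that were left). The median of the SNAREs was also below 0 with the scanner software's processed signal (−0.027), with replicate number as a fixed block (−0.045) and without Wnt4hi replicate 4 (−0.048). That of the synaptotagmins with *Doc2b* was 0.25 without Wnt4hi replicate 4 and 0.33 without Wnt4low replicate 4, and without the latter those of the SNARE regulators and of the Rab effectors and tethers were 0.25 and 0.29. With the authors' log2 values the median of the priming factors, 3 of which could be fitted, was 0.0089 (0.14 without the Wnt4hi replicate 2 column), that of the SNARE regulators (4 fitted) was 0.18 (0.27) and that of the Rab effectors and tethers (8 fitted) was 0.69 (0.71), and the SNAREs (6 fitted) were at 0.11 in both. With the fixed block the median was 0.64 for the priming factors, 0.83 for the granule and vesicle membrane proteins and 0.64 for the SNARE regulators. With the mean of all probes of a gene that of the SNARE regulators was 0.19. In the fixed block Wnt4hi replicate 2 and Wnt4low replicate 1 have no partner, so its differences rest on replicates 3 and 4 alone.

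**Figure D1:**
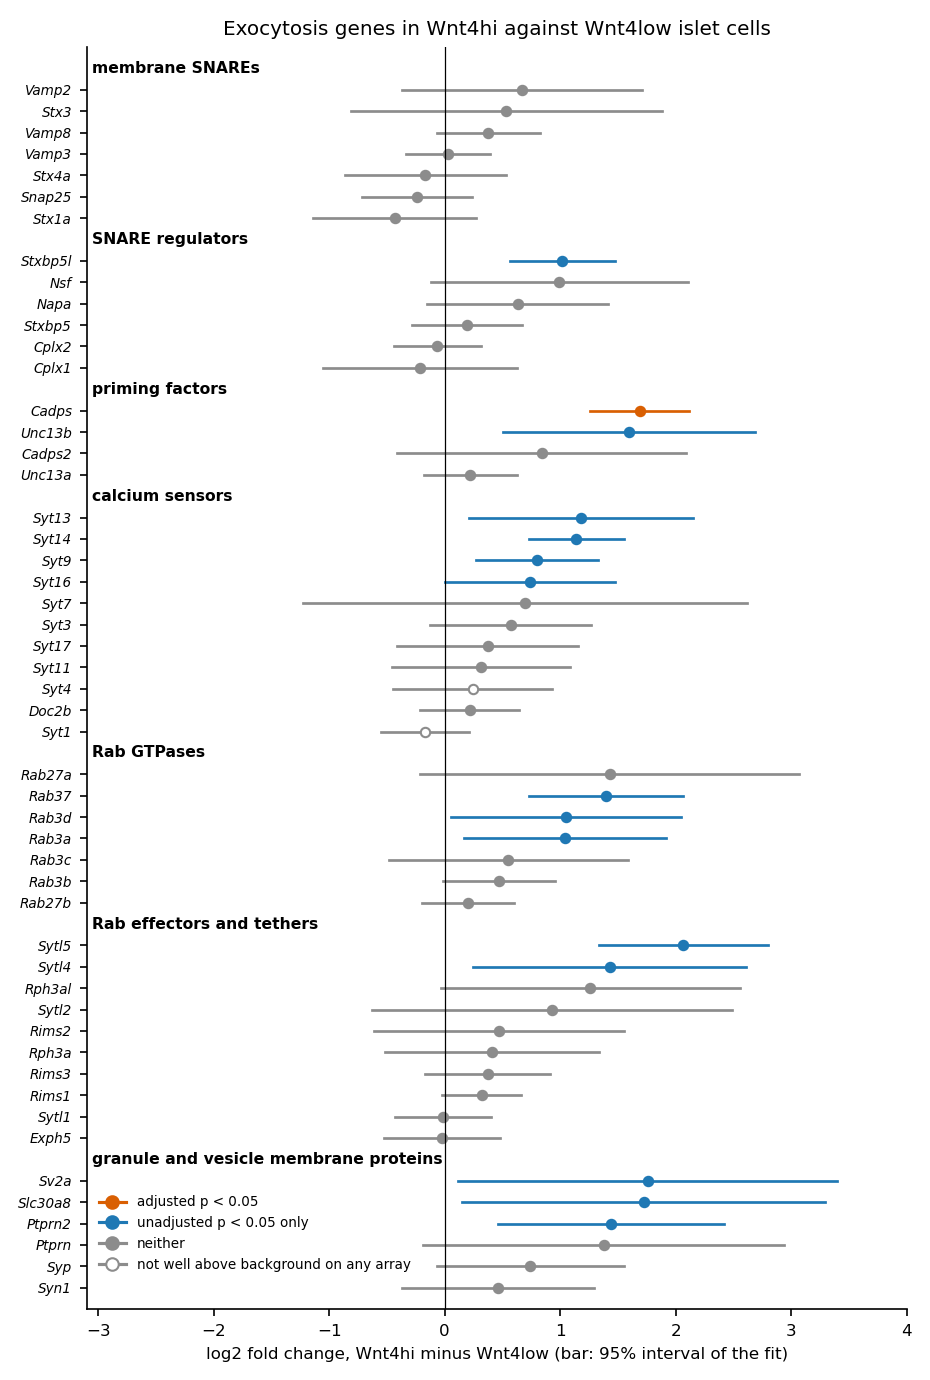
Log2 fold change (Wnt4hi minus Wnt4low, x axis) of the 51 exocytosis genes, grouped by role (the calcium sensors are the synaptotagmins with *Doc2b*), with the 95% confidence interval of the fit as a bar. Colored points mark the 15 genes past the unadjusted threshold and the 1 past the adjusted threshold (*Cadps*), all right of 0, while the intervals of all 7 SNAREs include 0, and open points mark *Syt1* and *Syt4*, which were not well above background on any array.

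Promoter sequences are shown for the gene with the smallest p (*Cadps*), for the gene with the largest difference (*Sytl5*) and for a plasma membrane SNARE that did not pass (*Stx1a*). Each is the RefSeq window of 300 bases, 250 before and 50 after the start site, on GRCm38.p6, written 5′ to 3′ on the strand of the gene. Capitals mark letters of a GC box (GGGCGG), a CRE half-site (TGACG), an E box (CAGATG) or a TATA box (TATAAA), each searched on both strands. The *Cadps* and *Sytl5* windows lie at starts inside the RefSeq span of the gene, downstream of its first base. For *Sytl5* they are far apart, as its span begins at base 9747622 and the window at base 9885371.
Cadps, chr14:12823030-12823329, minus strand: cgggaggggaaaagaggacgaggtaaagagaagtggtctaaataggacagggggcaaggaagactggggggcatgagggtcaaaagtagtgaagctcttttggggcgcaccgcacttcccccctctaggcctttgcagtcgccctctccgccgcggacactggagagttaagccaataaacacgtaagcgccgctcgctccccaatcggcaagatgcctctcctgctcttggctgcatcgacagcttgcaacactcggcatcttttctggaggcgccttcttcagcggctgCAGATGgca
Sytl5, chrX:9885371-9885670, plus strand: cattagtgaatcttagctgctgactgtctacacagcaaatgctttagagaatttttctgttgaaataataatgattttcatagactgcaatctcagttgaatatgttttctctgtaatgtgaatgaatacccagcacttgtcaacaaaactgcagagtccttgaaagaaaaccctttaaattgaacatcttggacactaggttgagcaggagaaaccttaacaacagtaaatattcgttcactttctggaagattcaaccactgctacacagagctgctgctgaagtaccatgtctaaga
Stx1a, chr5:135023232-135023531, plus strand: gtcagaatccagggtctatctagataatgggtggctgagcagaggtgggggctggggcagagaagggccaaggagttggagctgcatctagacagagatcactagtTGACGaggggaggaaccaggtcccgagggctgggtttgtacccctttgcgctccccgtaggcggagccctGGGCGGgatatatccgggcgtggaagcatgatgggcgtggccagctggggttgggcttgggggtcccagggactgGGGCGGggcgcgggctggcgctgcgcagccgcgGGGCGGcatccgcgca
The *Cadps* window holds 1 E box and 0 GC boxes, the *Sytl5* window holds 0 of the 4 motifs and is 37.0% G and C, and the *Stx1a* window holds 3 GC boxes and 1 CRE half-site at 66.3% G and C. The motifs marked in these windows do not overlap each other.

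A promoter was held for 38 of the 51 genes, 44 windows in all. A GC box lay in 28 of the 44 windows, against 35.7% of all 32851 windows of this length, a CRE half-site in 11 (20.8% of all), an E box in 3 (17.2%) and a TATA box in 2 (13.6%). By gene, 9 of the 12 that rose and 19 of the 26 that did not pass had a GC box in a window, against 38.2% of 27025 genes. A match is a description of letters and not a binding site.

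None of the 7 SNAREs passed the test and the arrays of the populations overlapped for each, as the plot of SNAREs and their regulators shows. *Snap25*, the plasma membrane SNARE that contributes a pair of helices to the complex, measured 15.20, 15.35 and 15.71 in Wnt4hi and 15.51, 15.57 and 15.91 in Wnt4low cells. The highest value was that of Wnt4low replicate 4 and the lowest that of Wnt4hi replicate 2, and the ranges overlapped. The difference of the means gave a log2 fold change of −0.24 (SE 0.19, adjusted p = 0.767), with an interval of the fit from −0.71 to 0.23, and its other probe differed by 0.19. *Stx1a*, the syntaxin partner of SNAP25, measured 8.76, 9.54 and 9.27 in Wnt4hi and 9.53, 10.08 and 9.26 in Wnt4low cells, with overlap and a log2 fold change of −0.43 (SE 0.29, adjusted p = 0.708, interval −1.14 to 0.27). *Stx1a* was below 0 under every alternative tried, from −0.62 to −0.21.

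*Vamp2*, the SNARE of the granule membrane, measured 10.70, 9.70 and 9.04 in Wnt4hi and 8.80, 9.36 and 9.27 in Wnt4low cells. Wnt4hi replicate 2 stood above the other 5 arrays and Wnt4hi replicate 4 lay among the Wnt4low values. The fit gave a log2 fold change of 0.67 (SE 0.43, adjusted p = 0.693). It was 0.23 without Wnt4hi replicate 2 and 0.057 with replicate number as a fixed block, which rests on replicates 3 and 4 alone. The other SNAREs were *Stx3* (0.53), *Stx4a* (−0.17, other probe −0.58), *Vamp3* (0.032, with a change of sign under several alternatives) and *Vamp8* (0.38). Their adjusted p lay between 0.564 and 0.968. For *Stx3*, Wnt4hi replicates 3 and 4 (11.90 and 11.75) lay above the Wnt4low values of 10.58 to 10.69 while Wnt4hi replicate 2 (9.81) lay below them, and without replicate 2 the log2 fold change was 1.20 and passed the unadjusted threshold (adjusted p = 0.0656). Without Wnt4hi replicate 3 it was 0.16 and without replicate 4 0.23. It also passed the unadjusted threshold with the mean of its probes (0.53, adjusted p = 0.439) and with replicate number as a fixed block (1.19, adjusted p = 0.157). Without Wnt4hi replicate 4, *Stx4a* fell by 0.48 on the log2 scale past the unadjusted threshold (adjusted p = 0.464) and *Vamp2* rose likewise by 1.06 (adjusted p = 0.445).

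Of the regulators that act on SNAREs, 1 of 6 rose. *Stxbp5l*, which encodes tomosyn-2, a syntaxin-binding protein that limits SNARE assembly, measured 10.29, 10.74 and 10.41 in Wnt4hi and 9.21, 9.53 and 9.63 in Wnt4low cells. All Wnt4hi values lay above all Wnt4low values. That is a log2 fold change of 1.02 (SE 0.19, adjusted p = 0.104), and its other probe differed by 0.92. The related *Stxbp5* (tomosyn-1) differed by 0.19 with overlap (adjusted p = 0.820). The complexins, which clamp partly assembled SNARE complexes, differed little by their leading probes. *Cplx2* differed by −0.063 (interval −0.44 to 0.31), with a change of sign under several alternatives, and by 0.38 by its other probe. *Cplx1* differed by −0.21 with a change of sign without Wnt4low replicate 4. *Nsf*, the ATPase that takes spent SNARE complexes apart, differed by 0.99 (adjusted p = 0.537) by its leading probe and by −0.32 to −0.02 by its other probes (leading probe 0.60 without Wnt4low replicate 3 and 1.39, past the unadjusted threshold, without replicate 4), and *Napa*, its adaptor, by 0.63 (adjusted p = 0.589) without overlap.

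**Figure D2:**
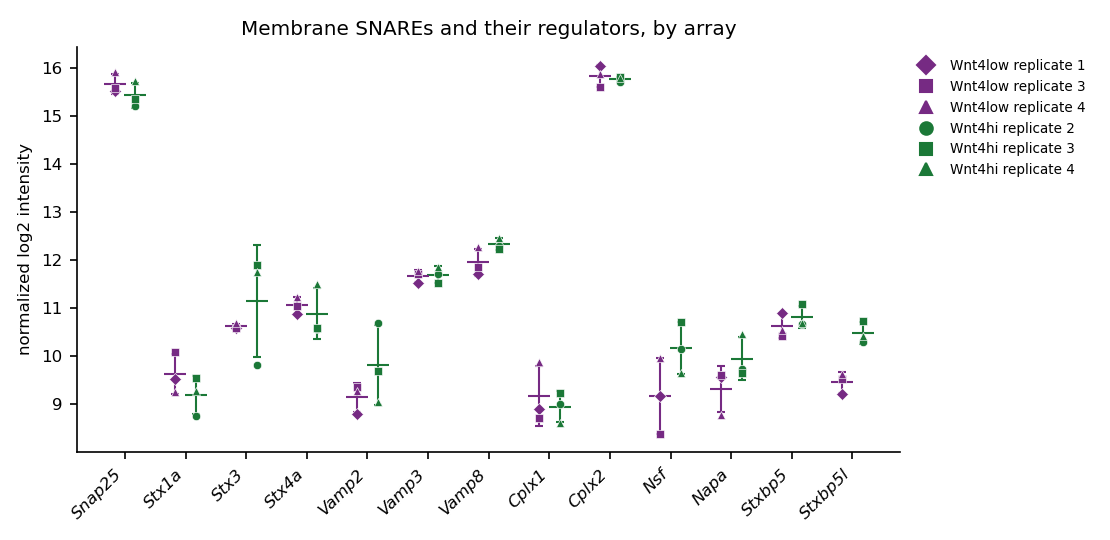
Normalized log2 intensity (y axis) of the 7 SNAREs and 6 SNARE regulators on each of the 6 arrays, with the mean of each population as a horizontal line and ± 1 SD as a bar (n = 3). Of the 13 genes, *Stxbp5l* and *Napa* have Wnt4hi points that all lie above the Wnt4low points, and for *Stx3* Wnt4hi replicate 2 lies below and the other Wnt4hi replicates above the Wnt4low points.

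Priming factors make docked granules ready to fuse. *Cadps*, which encodes CAPS1, a priming protein of dense-core granules, measured 11.92, 11.90 and 12.14 in Wnt4hi and 10.01, 10.52 and 10.36 in Wnt4low cells. The Wnt4hi values lay close together and each was above each Wnt4low value by more than 1. Between the population means the log2 fold change was 1.69 (SE 0.18, adjusted p = 0.0348), a 3.22-fold difference, and its other probe differed by 1.29. The adjusted p lay between 0.0645 and 0.138 when any 1 array was left out, whereas the log2 fold change stayed between 1.55 and 1.80.

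*Unc13b*, a Munc13 protein that opens syntaxin for assembly, measured 10.51, 9.60 and 10.58 in Wnt4hi and 7.76, 9.08 and 9.05 in Wnt4low cells. The populations did not overlap, and Wnt4low replicate 1 was the lowest array. This corresponded to a log2 fold change of 1.60 (SE 0.45, adjusted p = 0.261). *Unc13a*, the Munc13 best known from neurons, measured 7.68, 7.96 and 8.12 in Wnt4hi and 7.55, 7.72 and 7.83 in Wnt4low cells. The ranges overlapped, and the log2 fold change was 0.22 (SE 0.17, adjusted p = 0.747, interval −0.18 to 0.63) with a value below 0 in the authors' own table. *Cadps2* differed by 0.84 (adjusted p = 0.677) with overlap, by 0.38 without Wnt4low replicate 1 and by −0.25 to 0.10 by its other probes.

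Synaptotagmins carry the calcium signal to the SNAREs, although *Syt13*, *Syt14* and *Syt16* belong to those that do not bind calcium. It was these, with *Syt9*, that rose. *Syt14* measured 8.91, 9.43 and 9.17 in Wnt4hi and 7.98, 8.11 and 8.01 in Wnt4low cells, with no overlap and close Wnt4low values. The difference of the means gave a log2 fold change of 1.14 (SE 0.17, adjusted p = 0.0675), and its other probe differed by 0.87. *Syt13* measured 13.66, 13.89 and 13.88 in Wnt4hi and 11.73, 13.29 and 12.88 in Wnt4low cells. Wnt4low replicate 1 lay well below the other 5 arrays, and the Wnt4hi values were all above the rest. The log2 fold change of 1.18 (SE 0.40, adjusted p = 0.358) became 0.73 without that array (adjusted p = 0.325, still past the unadjusted threshold). *Syt16* measured 8.48, 9.29 and 9.46 in Wnt4hi and 8.09, 8.25 and 8.67 in Wnt4low cells, with overlap between Wnt4hi replicate 2 and Wnt4low replicate 4, and its log2 fold change was 0.74 (adjusted p = 0.474).

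*Syt9*, a calcium sensor of insulin granules, measured 7.81, 7.20 and 7.61 in Wnt4hi and 6.75, 6.48 and 6.99 in Wnt4low cells. Its probe was well above background on 1 Wnt4hi array, replicate 2, and on 0 Wnt4low arrays, so no fold is given. The Wnt4hi values were all higher (adjusted p = 0.245). *Syt7*, another calcium sensor of beta cells, measured 7.56, 7.45 and 9.41 in Wnt4hi and 8.91, 6.70 and 6.72 in Wnt4low cells. The arrays overlapped widely, with Wnt4hi replicate 4 and Wnt4low replicate 1 high in their groups, and the log2 fold change was 0.69 (SE 0.79, adjusted p = 0.842, interval −1.23 to 2.61). Its probe was well above background on 1 of the 3 Wnt4low arrays, replicate 1. Without Wnt4hi replicate 4 the log2 fold change was 0.059. *Syt3*, *Syt11* and *Syt17* differed by 0.32 to 0.57 and did not pass, with *Syt3* alone not overlapping. With 1 array left out their lowest values were 0.25 for *Syt3*, 0.0051 for *Syt11* and 0.013 for *Syt17*. *Doc2b* did not pass either, and its probe was well above background on 1 array of each population.

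Rab GTPases recruit the proteins that hold granules at the membrane. *Rab37*, which is found on insulin granules, measured 11.05, 11.72 and 11.28 in Wnt4hi and 9.58, 10.40 and 9.87 in Wnt4low cells. Each Wnt4hi value exceeded each Wnt4low value. The fit gave a log2 fold change of 1.40 (SE 0.27, adjusted p = 0.123), which ranged from 1.21 to 1.62 when single arrays were omitted. *Rab3a*, a Rab3 of neuronal vesicles and endocrine granules, measured 12.50, 11.54 and 11.89 in Wnt4hi and 10.33, 11.07 and 11.41 in Wnt4low cells. Here Wnt4hi replicate 2 was the highest array and Wnt4low replicate 1 the lowest, with no overlap. That is a log2 fold change of 1.04 (SE 0.36, adjusted p = 0.374) by this probe and 0.51 by the other.

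*Rab3d*, a Rab3 known from secretory granules of exocrine cells, measured 10.83, 10.79 and 11.15 in Wnt4hi and 10.68, 9.90 and 9.03 in Wnt4low cells. The Wnt4low values were widely spread, with the highest just below the Wnt4hi range, and the log2 fold change was 1.05 (SE 0.41, adjusted p = 0.443). *Rab27a*, which tethers insulin granules through its effectors, measured 10.51, 11.08 and 11.20 in Wnt4hi and 7.98, 10.70 and 9.82 in Wnt4low cells. Wnt4low replicate 3 lay above Wnt4hi replicate 2, so the groups overlapped. The log2 fold change of 1.43 (SE 0.68, adjusted p = 0.552) rested in part on Wnt4low replicate 1, without which it was 0.67 (adjusted p = 0.690), and it was 2.03 and past the unadjusted threshold without Wnt4low replicate 3 (adjusted p = 0.308). *Rab3b* (0.47, no overlap), *Rab3c* (0.55) and *Rab27b* (0.20, and below 0 by the mean of its probes) did not pass. *Rab3c* was 0.94 without Wnt4hi replicate 2 and 0.32 without replicate 3.

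Effectors and tethers bind the Rab proteins and dock the granule. *Sytl5*, a synaptotagmin-like Rab27 effector, had the largest difference of the 51 genes and measured 9.23, 10.24 and 10.22 in Wnt4hi and 7.67, 7.96 and 7.86 in Wnt4low cells. Every Wnt4hi value exceeded every Wnt4low value by more than 1. Between the population means the log2 fold change was 2.07 (SE 0.30, adjusted p = 0.0657), a 4.19-fold difference, and ranged from 1.90 to 2.40 over the fits that each omitted 1 array. *Sytl4*, which encodes granuphilin, the Rab27a effector that docks insulin granules, measured 13.09, 13.18 and 13.16 in Wnt4hi and 10.64, 12.65 and 11.86 in Wnt4low cells. The Wnt4hi values were nearly equal, and the Wnt4low values spread widely with replicate 1 the lowest. This corresponded to a log2 fold change of 1.43 (SE 0.49, adjusted p = 0.364), or 0.89 without Wnt4low replicate 1 (adjusted p = 0.391, still past the unadjusted threshold), and its other probe differed by 0.87.

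*Rims2*, a RIM scaffold that links Rab3 to the release site, measured 8.65, 9.87 and 8.94 in Wnt4hi and 8.44, 9.45 and 8.17 in Wnt4low cells. The arrays overlapped, and the log2 fold change was 0.47 (SE 0.45, adjusted p = 0.807, interval −0.61 to 1.55), from 0.11 without Wnt4hi replicate 3 to 0.85 without Wnt4low replicate 3. *Rph3al*, which encodes Noc2, a Rab3 and Rab27 effector, differed by 1.26 without overlap (adjusted p = 0.487) and passed the unadjusted threshold under 9 of the alternatives. It was 0.66 without Wnt4low replicate 1, 0.56 with replicate number as a fixed block and 0.73 by its other probe. *Rims1* (0.32) did not overlap either but did not pass. *Sytl2* (0.93, with its other probes at −0.08 to 0.17), *Rims3* (0.37) and *Rph3a* (0.41) overlapped and did not pass, with the probes of *Sytl2* and *Rph3a* well above background on 2 Wnt4hi arrays and 1 Wnt4low array. *Sytl1* (−0.015) and *Exph5* (−0.021) were near 0 and changed sign under some alternatives.

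Of the proteins of the granule or vesicle membrane, 6 of 6 had a log2 fold change above 0 and 3 rose. *Slc30a8*, the zinc transporter ZnT8 that loads insulin granules with zinc, measured 12.81, 12.91 and 12.88 in Wnt4hi and 9.70, 12.42 and 11.30 in Wnt4low cells. The Wnt4hi arrays were nearly equal, and the Wnt4low arrays ranged from Wnt4low replicate 1, far below, to replicate 3, just under the Wnt4hi values. The difference of the means gave a log2 fold change of 1.72 (SE 0.65, adjusted p = 0.421) and 1.00 without Wnt4low replicate 1 (adjusted p = 0.484, still past the unadjusted threshold). *Ptprn2*, which encodes phogrin, a transmembrane protein of dense-core granules, measured 14.53, 14.41 and 14.27 in Wnt4hi and 12.22, 13.84 and 12.82 in Wnt4low cells. There was no overlap, and Wnt4low replicate 1 was again lowest. The fit gave a log2 fold change of 1.44 (SE 0.40, adjusted p = 0.261), with its other probes at 1.33 to 1.59.

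*Ptprn*, which encodes the related granule protein IA-2, measured 13.13, 13.07 and 13.37 in Wnt4hi and 10.32, 12.95 and 12.17 in Wnt4low cells. The Wnt4hi values were all higher, by little against Wnt4low replicate 3 and by much against replicate 1. That is a log2 fold change of 1.38 (SE 0.64, adjusted p = 0.545), and the other probe of *Ptprn* differed by 0.47. The log2 fold change was 0.63 without Wnt4low replicate 1 (adjusted p = 0.610) and 1.94, past the unadjusted threshold, without Wnt4low replicate 3 (adjusted p = 0.304). *Sv2a*, a vesicle glycoprotein, measured 9.72, 10.51 and 9.68 in Wnt4hi and 6.67, 9.18 and 8.79 in Wnt4low cells. Its probe was well above background on 2 of the 3 Wnt4low arrays, and Wnt4low replicate 1 lay more than 2 below the next array. Between the population means the log2 fold change was 1.76 (SE 0.67, adjusted p = 0.433) and 0.99 without that array (adjusted p = 0.441, still past the unadjusted threshold). *Syp*, synaptophysin, differed by 0.74 without overlap (adjusted p = 0.520) and by 0.37 without Wnt4low replicate 1, and *Syn1*, synapsin I, by 0.46 with overlap (adjusted p = 0.741).

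**Figure D3:**
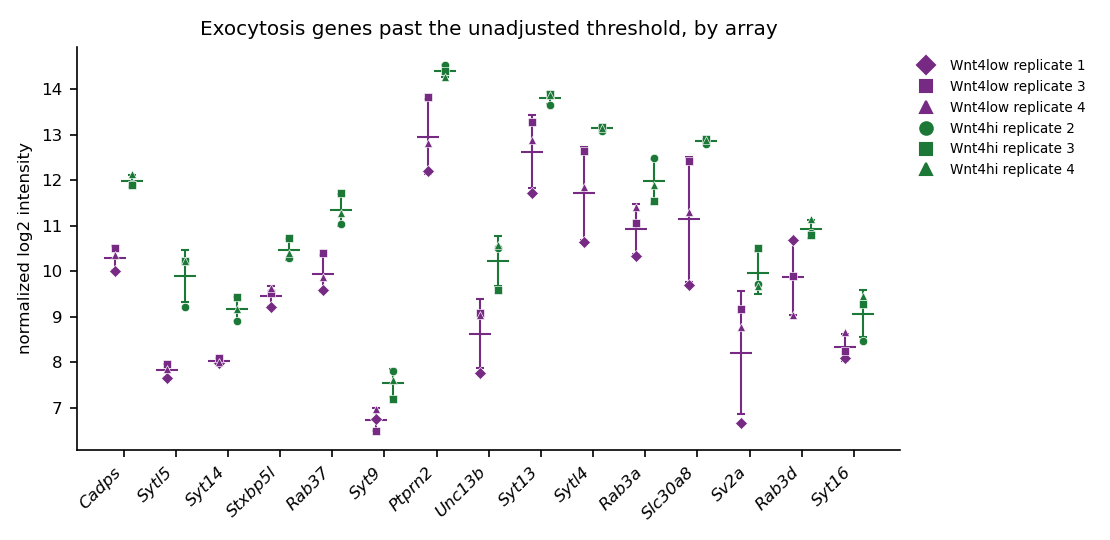
Normalized log2 intensity (y axis) of the 15 genes past the unadjusted threshold on each array, with the population mean as a horizontal line and ± 1 SD as a bar (n = 3). The Wnt4hi points lie above all Wnt4low points for 14 of the 15, *Syt16* being the exception, and Wnt4low replicate 1 is the lowest array for all of them but *Syt9* and *Rab3d*.

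With each gene set relative to its mean over the 6 arrays, the median of the granule and vesicle membrane proteins was −1.82 on Wnt4low replicate 1, 0.12 on replicate 3 and −0.32 on replicate 4, and the median of the beta cell markers was −1.10, 0.051 and −0.56 on the same arrays. On the Wnt4hi arrays the beta cell markers were at 0.65, 0.76 and 0.32. The Rab GTPases (−0.63) and the priming factors (−1.23) were also lowest on Wnt4low replicate 1. The median of the Rab effectors and tethers was lowest on Wnt4low replicate 4 (−0.49, against −0.09 on replicate 1), but their summed intensity on replicate 1 (7502 against 10910). The synaptotagmins with *Doc2b* likewise had the lowest median on replicate 4 (−0.28 against −0.16) and the lowest summed intensity on replicate 1 (8674 against 11463). The SNARE regulators had their lowest median on Wnt4low replicate 3 (−0.32, against −0.11 on replicate 1) and their highest summed intensity on Wnt4low replicate 1 (71125). The SNAREs lay between −0.35, on Wnt4hi replicate 2, and 0.18. The alpha cell markers (−2.51) and those of PP and epsilon cells (−1.19) were also lowest on Wnt4low replicate 1, where the delta cell markers were highest (0.75). The granule genes and the beta, alpha, PP and epsilon cell markers were thus lowest on the same array. The part of the share of any endocrine cell type in the differences was not tested.

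**Figure D4:**
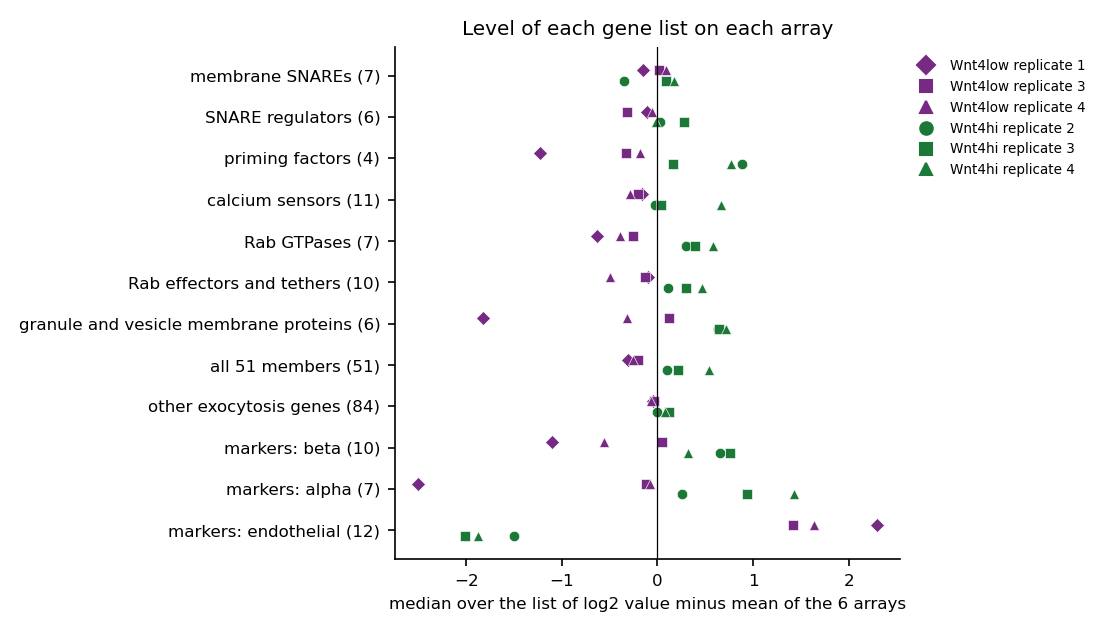
Median over each list of the log2 value relative to the gene's mean over the 6 arrays (x axis), 1 point per array, with the number of genes in parentheses. Wnt4low replicate 1 is the lowest array for the granule and vesicle membrane proteins (−1.82) and the beta (−1.10) and alpha cell markers and the highest for the endothelial markers, while the points of the SNAREs lie between −0.35 and 0.18.

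**Figure D5:**
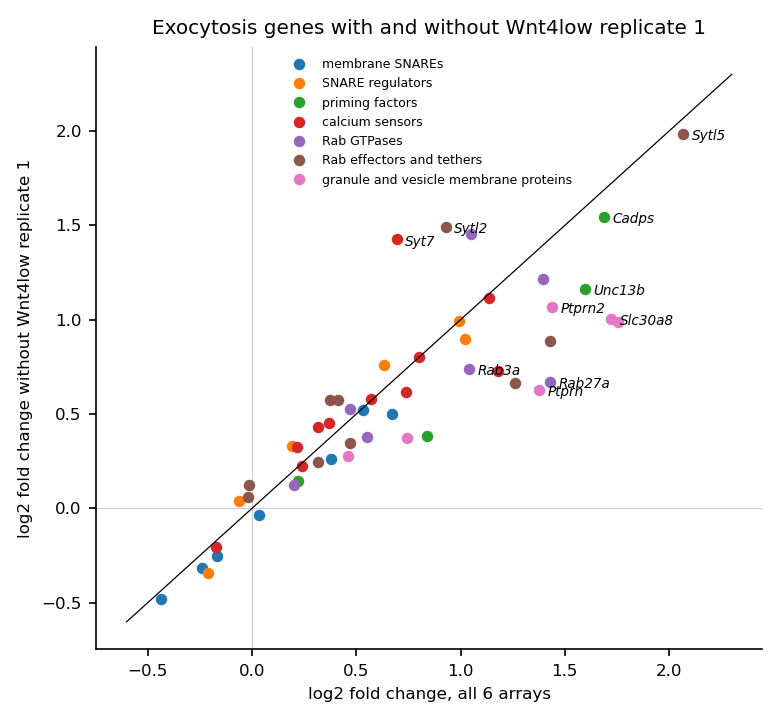
Log2 fold change of each of the 51 genes with all 6 arrays (x axis) and without Wnt4low replicate 1 (y axis), colored by role, with the line of equality. *Cadps* and *Sytl5* lie near the line, *Slc30a8*, *Rab27a* and *Ptprn* lie below it (1.72 to 1.00, 1.43 to 0.67 and 1.38 to 0.63), and *Syt7* and *Sytl2* lie above it, both with a probe that was dim on Wnt4low replicates 3 and 4.

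Of the 15 genes that rose, 8 passed the unadjusted threshold in every alternative that could be computed for them, namely *Cadps*, *Sytl5*, *Syt14*, *Stxbp5l*, *Rab37*, *Syt9*, *Ptprn2* and *Unc13b*. *Syt13* was lost without Wnt4hi replicate 3 or 4. *Slc30a8*, *Sytl4*, *Sv2a* and *Rab3d* were lost without any 1 of the Wnt4hi arrays, and *Slc30a8*, *Sytl4* and *Rab3d* without Wnt4low replicate 4 as well, with *Rab3d* also lost without Wnt4low replicate 3. *Rab3a* was lost without Wnt4hi replicate 2 or 4 or Wnt4low replicate 1 or 3, and *Syt16* without Wnt4hi replicate 3 or 4 or Wnt4low replicate 1 or 3. With all arrays kept, *Slc30a8*, *Sv2a* and *Rab3d* were also lost with the processed signal, *Sv2a* and *Syt16* with cyclic loess, *Syt16* with the trended and robust variance model, and *Sytl4* and *Rab3a* with the mean of all probes. *Rab3a* and *Sv2a* were lost with the authors' log2 values as well, as were these and *Slc30a8* and *Sytl4* with those values without the Wnt4hi replicate 2 column. With replicate number as a fixed block *Rab3a* was lost (0.48, adjusted p = 0.649). Over the fits that each omitted 1 array the log2 fold changes ranged from 1.00 to 2.36 for *Slc30a8*, from 0.89 to 1.90 for *Sytl4*, from 0.99 to 2.24 for *Sv2a*, from 0.63 to 1.46 for *Rab3d*, from 0.74 to 1.28 for *Rab3a* and from 0.54 to 1.04 for *Syt16*. No gene that rose had a value below 0 in any alternative. Of the 36 genes that did not pass, *Nsf*, *Syp*, *Vamp8* and *Rph3al* passed the unadjusted threshold without Wnt4low replicate 4, *Rab3b*, *Rab27a* and *Ptprn* without Wnt4low replicate 3, *Rims3* and *Sytl2* without Wnt4low replicate 1, *Rab3c* and *Stx3* without Wnt4hi replicate 2 and *Vamp2* without Wnt4hi replicate 4. With the authors' log2 values *Rab3c*, *Napa*, *Rph3al*, *Stx3* and *Sytl2* passed, and with a random block *Rab3b*. In 34 of the 36 and in 5 of the 15 that rose, leaving out 1 array moved the log2 fold change by over 1.5 times.

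To ask whether related genes differed in their response, 18 pairs were compared within each array by an exact permutation test of the difference of their log2 values. In 2 pairs the populations did not overlap. *Unc13b* differed more than *Unc13a*, by 1.37 (*Unc13a* minus *Unc13b* −1.37), and *Stxbp5l* more than *Stxbp5*, by 0.83. Each had the smallest exact p that the design allows, 0.1, and an adjusted p of 0.72 over the 18 pairs, so that with 3 arrays against 3 no pair could have passed. *Rab27a* minus *Rab27b* (1.23, exact p = 0.2) and *Cadps* minus *Cadps2* (0.85, exact p = 0.2) overlapped, and *Ptprn* and *Ptprn2* differed by −0.063 in their log2 fold changes (exact p = 0.9).

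Of 84 other genes of the same pathway that are not among the 51, such as other SNAREs, exocyst subunits, active-zone proteins and Rab regulators, 7 rose (background 5.02%), 3 fell (5.53%) and 0 passed after adjustment in either direction. Their median log2 fold change was 0.049, and 9 had higher and 3 lower arrays without overlap (9.56% and 6.44% of all features). *Synpr*, synaptoporin, a vesicle protein related to synaptophysin, measured 10.78, 10.60 and 10.79 in Wnt4hi and 8.24, 9.01 and 9.11 in Wnt4low cells, with no overlap and a log2 fold change of 1.94 (SE 0.25, adjusted p = 0.0522). *Pclo*, piccolo, an active-zone scaffold, measured 12.33, 11.57 and 11.10 in Wnt4hi and 9.23, 10.45 and 9.81 in Wnt4low cells, and *Rimbp2*, which links RIM to calcium channels, measured 11.23, 12.43 and 12.26 in Wnt4hi and 10.00, 10.86 and 10.47 in Wnt4low cells. Both were higher on every Wnt4hi array, with log2 fold changes of 1.84 (adjusted p = 0.173) and 1.53 (adjusted p = 0.206), and the other probes of *Pclo* differed by 0.41 and 0.77. In the other direction, *Stx12*, an endosomal syntaxin, measured 8.38, 8.50 and 8.85 in Wnt4hi and 9.31, 9.26 and 9.31 in Wnt4low cells and fell by 0.71 on the log2 scale (adjusted p = 0.165). *Myo5a*, a myosin motor that carries granules along actin, measured 9.87, 9.38 and 9.31 in Wnt4hi and 10.31, 10.03 and 10.11 in Wnt4low cells and fell by 0.63 (adjusted p = 0.307), with its other probe at −0.27. The third gene that fell, *Rab3il1*, overlapped between the populations and was well above background on 0 Wnt4hi and 2 Wnt4low arrays (adjusted p = 0.455). All 9 exocyst subunits measured, which tether vesicles at the membrane, failed to pass the test. *Exoc3* was well above background on 1 Wnt4hi and 0 Wnt4low arrays, and the other 8 had log2 fold changes from −0.56 to 0.51.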

How the data were processed

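The authors deposited, for each array, scanner output with the intensity of each spot and of the area around it for the Cy5 label, before any normalization, made with Agilent Feature Extraction (version 9.1 per the labels), with spot flags in other columns as deposited, and 1 table of log2 values that they had normalized. After the study's methods, median intensities were corrected with normexp (offset 50) and quantile-normalized with limma 3.58.1 (R 4.3.3). The columns held give the median and not the mean intensity. Outlier spots (50 to 141 per array) were left out and spots of a probe averaged. Of 27845 RefSeq-type probe names, 25126 matched RefSeq genes (GRCm38.p6, used for names and promoters). The probe with the highest mean stood for a gene, which gave 45616 features, compared by lmFit and eBayes without covariates, with Benjamini-Hochberg adjustment. The calculation was tested on simulated data. All arrays lie on 1 slide, so no batch was tested. Per array, median intensity over median background was 10.8 to 15.6, and precision is limited by the 6 arrays. Arrays are given for genes past the unadjusted threshold without overlap and for a core set of 12, and among the other genes, for the largest changes that met the same conditions (3 higher, 2 lower). *Syt16*, *Stx3* and the other values named outside that rule were chosen after they were seen. The members and lists were chosen with earlier results of these data known. Alternatives changed the background correction, normalization, probe choice, dim filter, outlier spots, variance model, replicate block and values, and left out each array.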

Additional observations from a re-analysis of the deposited data

How the results depend on the processing

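Of 947 values of single genes under the alternatives, 843 kept their direction and side of the threshold, 35 newly passed it, 41 no longer passed and 28 changed sign. The number of genes that rose, 15, lay between 13 and 18 under the alternatives that kept all arrays, and between 9 (without Wnt4hi replicate 3 or 4) and 16 when 1 array was left out. The number that fell was 0 in each alternative but 1 (0 to 1 with 1 array left out, where *Stx4a* fell without Wnt4hi replicate 4). The number past the adjusted threshold, 1, was 0 with the processed signal, with the mean of all probes of a gene and with the fixed replicate block, 2 with median centring, 3 with only probes well above background, 4 with the authors' log2 values, 2 with those values without the Wnt4hi replicate 2 column (chosen after seeing the data) and 0 with any 1 array left out, where between 0 and 2 of all features passed. The last cases had fewer arrays and the dim filter fewer features, and the cause of these changes was not tested.

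Equal replicate numbers were given to 2 pairs of arrays, whose deviations from the group means correlated at −0.033 and 0.16. Wnt4hi replicate 2 and Wnt4low replicate 1, with unequal numbers, correlated at 0.18. With 3 arrays per population such values cannot show whether arrays share pups. Pool sizes were equal within each number, 4 pups for replicate 3 and 3 for replicate 4. The main fit did not take them as pairs, and pairing is not settled. In a fit with replicate number as fixed block 18 of the 51 and 11 of the 84 other genes rose, against 4.51% of all features. *Rab3a* was lost and *Rab27a*, *Stx3*, *Syt7* and *Sytl2* were gained, the last 2 dim on Wnt4low replicates 3 and 4. That block compares replicates 3 and 4 only, so its changes cannot be told apart from those of leaving out Wnt4hi replicate 2 and Wnt4low replicate 1. With a random block 16 of the 51 rose.

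The median of the 51 genes stayed between 0.45 and 0.72. The median of the 84 other genes, 0.049, was 0.13 with the authors' values (also without that column) and between 0.048 and 0.10 with 1 array left out. Of the 84, 5 to 9 rose and 1 to 5 fell with 1 array left out. The count of gene pairs without overlap, 2, was 4 with the mean of all probes and 2 to 5 with 1 array left out. Sign changes were found for *Vamp3* (−0.027 with the processed signal, −0.033 with the authors' values, −0.0044 with the authors' values without the Wnt4hi replicate 2 column, −0.045 with the fixed replicate block, −0.048 without Wnt4hi replicate 4, −0.037 without Wnt4low replicate 1), *Cplx2* (0.020 with the processed signal, 0.0026 with median centring, 0.15 with cyclic loess, 0.16 with the mean of the probes, 0.15 with the authors' values, 0.10 with the authors' values without the Wnt4hi replicate 2 column, 0.069 with the fixed replicate block, 0.038 without Wnt4low replicate 1), *Sytl1* (0.0074 with the processed signal, 0.067 with the authors' values, 0.14 with the fixed replicate block, 0.031 without Wnt4hi replicate 4, 0.12 without Wnt4low replicate 1), *Rab27b* (−0.057 with the mean of the probes), *Unc13a* (−0.10 with the authors' values, −0.10 with the authors' values without the Wnt4hi replicate 2 column), *Exph5* (0.071 with the fixed replicate block, 0.0059 without Wnt4hi replicate 3, 0.062 without Wnt4low replicate 1, 0.11 without Wnt4low replicate 3), *Syt4* (−0.060 without Wnt4hi replicate 4) and *Cplx1* (0.14 without Wnt4low replicate 4). With 1 array left out, *Cplx1* ranged from −0.44 to 0.14, *Cplx2* from −0.18 to 0.038, *Exph5* from −0.23 to 0.11, *Sytl1* from −0.13 to 0.12 and *Syt4* up to 0.47. All these genes had a log2 fold change within 0.25 of 0 with all arrays.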

Other observations

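In the authors' table of normalized log2 values and in the scanner values, each feature was first set relative to its mean over all arrays. The correlations across features therefore compare deviations from that mean and not whole expression profiles. The column labelled Wnt4hi replicate 2 correlated with its own scanner array at 0.29 and with that of Wnt4hi replicate 3 at 0.30. The other 5 columns of the authors' table correlated with their own arrays at 0.89 to 0.91. Which sample that column holds is not settled. Rows for 43 of the 51 genes were found there. In that table *Stx3* passed the adjusted threshold (log2 fold change 0.99, adjusted p = 0.0359; without that column 1.09, adjusted p = 0.0482), which it did not do in the fit of the scanner values (0.53, adjusted p = 0.825).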
